A study of Mus musculus with 8 samples.

Results

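Kit, Flt3, Cd34, Procr, Slamf1, Csf1r, Csf2ra and Csf3r encode 8 receptors and surface proteins by which blood stem and progenitor cells and their myeloid descendants are recognised and driven. They were taken as every probe set that the array annotation gives to 1 of these symbols, 14 of 22626 probe sets and 8 of 12393 named genes. RNA of sorted CD45+/Sca1+ cells of C57BL/6 mice 6 to 8 weeks old was measured on Affymetrix mouse 430A arrays, 8 in all, with 2 in each of 4 groups. The groups were muscle injured with cardiotoxin in bone marrow transplant recipients (transplanted injured muscle), muscle injured with cardiotoxin and no transplant (injured muscle), muscle for which the labels name no treatment (resting muscle), and bone marrow, also with no treatment named. All 4 groups share the strain, the age range and the sort for CD45, the pan-leukocyte surface protein, and Sca1, a surface protein of stem and progenitor cells. Cardiotoxin is a snake venom toxin that kills muscle fibres and is followed by regeneration. The time after injury, the donor of the transplant and the share of donor cells are not stated in the labels. The labels do not say whether the 2 arrays of a group came from separate animals, so the spread behind each p-value is that between these arrays and may be technical. The arrays measure RNA, not the surface proteins.

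Kit, Flt3 and Csf1r are receptor tyrosine kinases of one family. Kit binds stem cell factor and acts in blood stem cells, early progenitors and mast cells. Flt3 binds the Flt3 ligand and acts in multipotent, lymphoid and dendritic progenitors, and Csf1r binds Csf1 and interleukin 34 and acts in monocytes and macrophages. Csf2ra and Csf3r belong to the cytokine receptor family, which has no kinase of its own and signals through Janus kinases and STAT factors. Csf2ra is the ligand-specific chain of the GM-CSF receptor, whose signalling partner is the common beta chain Csf2rb, and Csf3r is the G-CSF receptor of the granulocyte lineage. Cd34 is a sialomucin of progenitors and of endothelium, Procr is the endothelial protein C receptor and also a marker of mouse blood stem cells, and Slamf1 (CD150) is a self-binding receptor of stem cells and of some lymphocytes.

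RefSeq promoter sequences (GRCm38.p6) were at hand for 7 of the 8 genes. Csf1r was not among them. The 250 bases before the start are printed for Kit, Cd34 and Slamf1, whose RNA was lower in both injured groups than in both others, and for Csf2ra, whose leading probe set was higher there. Capitals mark GAGGAAG, a PU.1-type motif.
Kit, chr5:75574737-75574986, plus strand: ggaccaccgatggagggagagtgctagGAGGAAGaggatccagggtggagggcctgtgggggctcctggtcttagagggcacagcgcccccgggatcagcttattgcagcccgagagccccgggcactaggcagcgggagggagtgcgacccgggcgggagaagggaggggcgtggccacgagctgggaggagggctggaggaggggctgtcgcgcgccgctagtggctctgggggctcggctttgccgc
Cd34, chr1:194938571-194938820, plus strand: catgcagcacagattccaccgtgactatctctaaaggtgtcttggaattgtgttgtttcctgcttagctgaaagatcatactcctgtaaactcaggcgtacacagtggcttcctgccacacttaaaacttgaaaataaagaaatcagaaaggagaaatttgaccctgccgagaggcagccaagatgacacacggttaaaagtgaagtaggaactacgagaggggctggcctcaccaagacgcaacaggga
Slamf1, chr1:171766882-171767131, plus strand: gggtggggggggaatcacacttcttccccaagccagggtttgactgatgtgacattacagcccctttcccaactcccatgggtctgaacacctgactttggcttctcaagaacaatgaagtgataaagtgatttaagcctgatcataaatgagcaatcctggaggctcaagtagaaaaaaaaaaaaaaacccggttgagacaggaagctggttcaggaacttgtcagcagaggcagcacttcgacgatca
Csf2ra, chr19:61228419-61228668, minus strand: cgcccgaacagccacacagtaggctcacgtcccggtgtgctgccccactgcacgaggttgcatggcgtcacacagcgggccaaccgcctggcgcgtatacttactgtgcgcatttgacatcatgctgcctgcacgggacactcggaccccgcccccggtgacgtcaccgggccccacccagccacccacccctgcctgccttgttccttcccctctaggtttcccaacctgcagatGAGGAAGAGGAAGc
The search covered both strands over the same 250 bases and took 3 motifs. TGTGGT is a RUNX-type motif. A GATA-type motif was searched as AGATAA. The PU.1-type motif stood 223 to 217 bases before the Kit start, and in the Csf2ra window 2 overlapping copies lay 14 to 8 and 8 to 2 bases before the start. The Csf3r window held 1 copy, 86 to 80 bases before its start. Only 1 start per gene was used, the one at the lowest coordinate. For Csf2ra and Csf3r it lies inside the annotated gene (chr19:61217191-61228461 and chr4:126023441-126044975). Both Csf2ra copies and the whole Csf3r window thus lie within the gene. The Procr window also runs into its gene, and that of Slamf1 does so with its last base. The other 4 windows held none of the 3 motifs, and the RUNX and GATA letters were in none of the 7. Among 27025 promoters, 14.2% held the RUNX letters, 10.2% the GATA letters and 10.4% the PU.1 letters. A match is a description of the letters in this window and not a bound site.

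Intensities are linear and were scaled per array by the authors. They are comparable between arrays for 1 probe set, not between probe sets. Where a gene had several probe sets, the one with the highest mean is its leading probe set and stands for the gene. Fold changes are differences of log2(intensity + 4), which understates the change of dim probe sets. A probe set was tested if at least 2 arrays reached 38.4, which 16289 probe sets did. A gene was called higher or lower at an adjusted p under 0.05. The leading probe set of each of the 8 genes was tested, as were 3 further probe sets, and 1 further probe set of Kit and 2 of Slamf1 did not pass the filter.

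Ptprc, which encodes CD45, had an intensity of 6644 and 5204 in transplanted injured muscle, 5976 and 6996 in injured muscle, 6476 and 4924 in resting muscle, and 5007 and 5727 in bone marrow, so the sorted marker was bright on every array. The gene of Sca1, Ly6a, is not named by the probe annotation used here. The 2 arrays of a group correlated between 0.895 and 0.950 (Pearson's r over probe sets), lowest in resting muscle. The control ratio of Gapdh, the intensity of its 3' probe set over its 5' one, was 0.808 to 0.882 on the 4 arrays of the injured groups, 46.9 and 13.6 on the resting muscle arrays, and 24.4 and 10.7 on the bone marrow arrays. For beta-actin it was 1.18 to 1.23 on the injured arrays, 19.0 and 10.1 in resting muscle, and 5.75 and 5.68 in bone marrow. Injury and this control ratio therefore cannot be told apart in any comparison of an injured group with resting muscle or bone marrow.

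**Figure D1:**
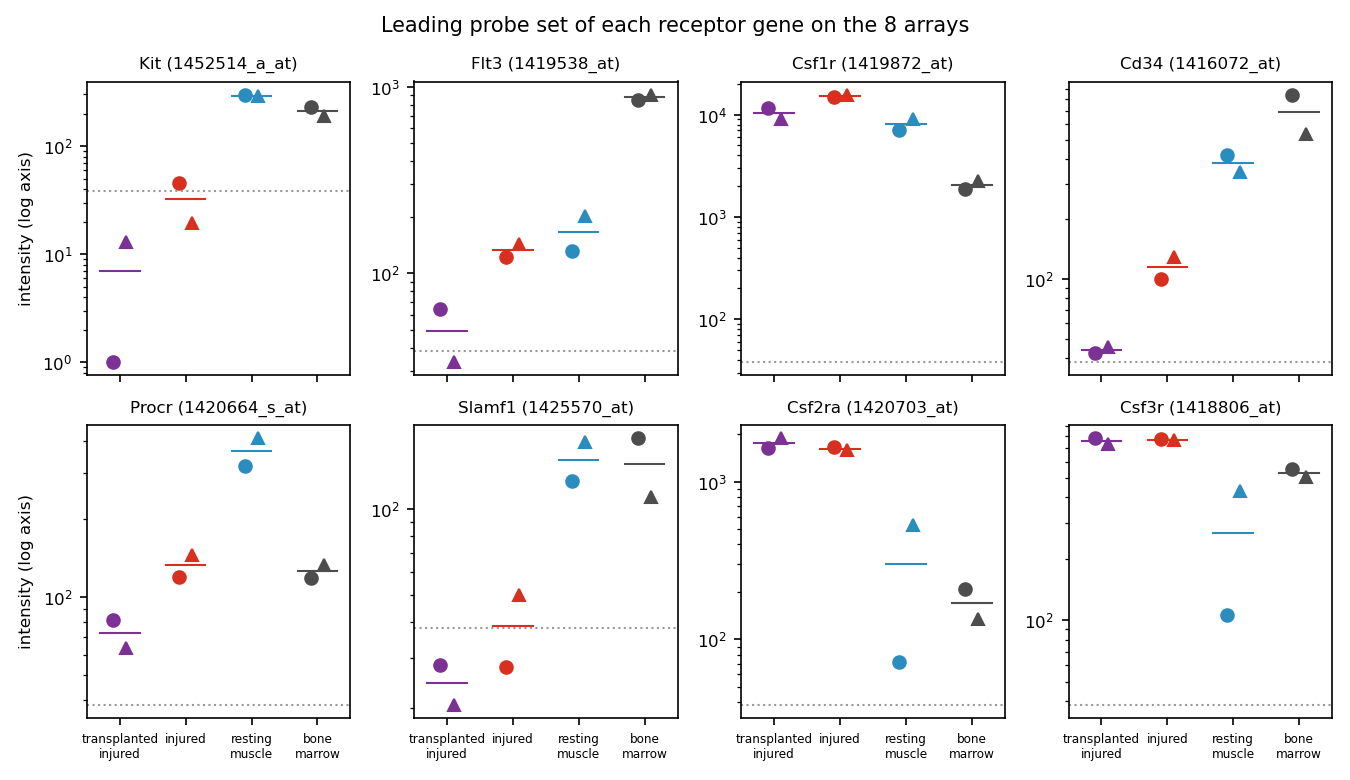
Intensity (log axis) of the leading probe set of each of the 8 genes on the 8 arrays, from left to right transplanted injured muscle, injured muscle, resting muscle and bone marrow; circles are replicate 1, triangles replicate 2, bars group means and the dotted line the filter level of 38.4. Kit, Cd34 and Slamf1 sit lower on all 4 injured arrays than on all 4 others, while Csf2ra and Csf3r sit higher there.

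Injured against resting muscle, Kit, Cd34, Procr and Slamf1 fell, Csf1r, Csf2ra and Csf3r rose, and Flt3 did not pass the test. That is 3 of 8 genes higher and 4 lower, beside a background of 26% of all tested probe sets called, 12.1% higher and 13.9% lower. In transplanted injured against resting muscle, Cd34, Flt3, Kit, Procr and Slamf1 fell and Csf2ra and Csf3r rose, 7 of 8 genes against a background of 32.4% (13.9% higher and 18.5% lower). Resting muscle differed from bone marrow in 3 of the 8 genes, with Csf1r and Procr higher and Flt3 lower, against a background of 6.08% (4.83% higher and 1.25% lower). Between transplanted injured and injured muscle none of the 8 was called by limma, where the background was 0.252% (0.0246% higher and 0.227% lower), and 5 of the 8 had an unadjusted p under 0.05, as did 8.75% of all tested probe sets.

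Against bone marrow, the transplanted injured and the injured group gave the same calls: Cd34, Flt3, Kit and Slamf1 were lower and Csf1r and Csf2ra higher. The background was 32.5% for the transplanted injured group (15.1% higher and 17.4% lower) and 30.9% for the injured group (15.5% in each direction), and both comparisons share the bone marrow arrays. Over all 4 groups at once, limma's F test called 7 of the 8 genes, against 38.1% of all probe sets. Csf3r was the exception (adjusted p = 0.0773). The median log2 fold change of the 8 genes was -0.86 in injured and -1.99 in transplanted injured against resting muscle (-0.86 and -1.73 with every array under 38.4 raised to that level), beside -0.14 and -0.19 over all tested probe sets. Arrays of the compared groups did not overlap for 7 of 8 genes in injured against resting muscle (66.3% of all tested probe sets), 8 of 8 in transplanted injured against resting muscle (68.8%), 6 of 8 in resting muscle against bone marrow (43.7%) and 5 of 8 in transplanted injured against injured muscle (50.2%). Against bone marrow these were 8 of 8 for transplanted injured (72.9%) and 7 of 8 for injured muscle (73.1%). With 2 arrays a group, such separation was common over the whole array.

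**Figure D2:**
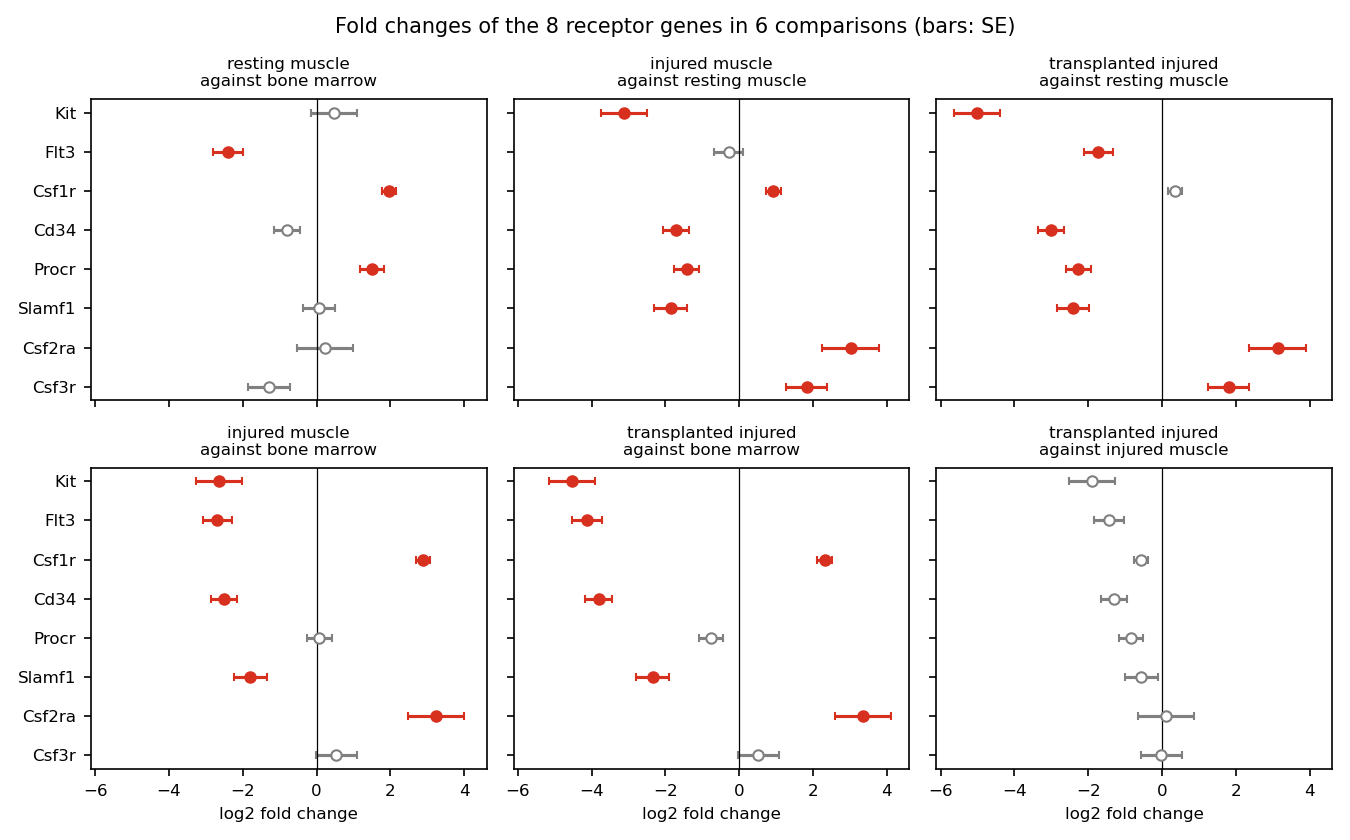
Log2 fold change of the leading probe sets in the 6 comparisons, with the SE as bars; filled points are genes called at an adjusted p under 0.05. Against resting muscle, Kit (-5.01 in transplanted injured and -3.12 in injured muscle) lies farthest to the left as fitted and Csf2ra (3.13 and 3.02) farthest to the right. The transplanted injured points of Kit and Slamf1 rest on arrays under 38.4, where only the bounds in the text hold.

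Kit, the stem cell factor receptor, had an intensity of 1.02 and 12.9 in transplanted injured muscle, 45.6 and 19.5 in injured muscle, 298 and 289 in resting muscle, and 231 and 191 in bone marrow (probe set 1452514_a_at). The 4 injured arrays lay below the 4 others without overlap, and 3 of them were under the filter level. Injured muscle was lower than resting muscle by a log2 fold change of -3.12 ± 0.62 (SE, adjusted p = 0.01) and lower than bone marrow by -2.65 ± 0.62 (adjusted p = 0.0144). For transplanted injured muscle, with both arrays under 38.4, that level took the place of the measured mean, and Kit was at least 7.02-fold lower than resting muscle and at least 5.05-fold lower than bone marrow (adjusted p = 0.00135 and 0.00144). The level 38.4 is the filter, not a detection limit, and the fitted values there (-5.01 and -4.54) depend on the constant of 4. From high to low the order was resting muscle, bone marrow, injured muscle and transplanted injured muscle. Neither resting muscle against bone marrow (0.47 ± 0.62, adjusted p = 0.743) nor transplanted injured against injured muscle (adjusted p = 0.348) passed the test. No fold is given for the second, since the means of both groups (6.98 and 32.6) were under 38.4, and for the same reason the fitted values of injured muscle above are uncertain in size.

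The fall of Kit in injured muscle was no longer called without injured muscle replicate 2 (-2.58, adjusted p = 0.0724). Against bone marrow, its call in injured muscle ended without injured muscle replicate 2 (-2.11, adjusted p = 0.0994), without bone marrow replicate 1 (-2.52, adjusted p = 0.0799) and without bone marrow replicate 2 (-2.78, adjusted p = 0.0581). The second Kit probe set, 1415900_a_at, stayed between 4.18 and 37.3 on all 8 arrays, under the filter level throughout. At these low values bone marrow (10.1 and 4.18) lay below injured (37.3 and 11.1) and transplanted injured muscle (27.2 and 20.8), opposite to the leading probe set. Resting muscle (25.6 and 5.78) overlapped with every other group. Averaging both probe sets removed the call in injured muscle against resting muscle (-1.28, adjusted p = 0.133) and against bone marrow (-0.72, adjusted p = 0.368), and that of transplanted injured muscle against bone marrow (-1.58, adjusted p = 0.0656). Whether fewer cells with Kit or less Kit RNA per cell lies behind such a value cannot be told apart in these bulk samples, and this holds for every gene below.

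Mast cells carry Kit. The mast cell and basophil markers, 8 of 9 on the array, summed to 273 to 346 in transplanted injured muscle, 3021 to 3349 in injured muscle, 8137 to 8566 in resting muscle and 1293 to 1476 in bone marrow. Cpa3, the mast cell carboxypeptidase, averaged 54.7 ± 1.22 in transplanted injured muscle, 824 ± 82.5 in injured muscle, 3056 ± 959 in resting muscle and 232 ± 43.2 in bone marrow (SD, n = 2 each). Cma1, a mast cell chymase, averaged 79.6 ± 17.6, 1380 ± 66.6, 2330 ± 102 and 38.5 ± 2.48 in the same 4 groups. The protease Tpsb2 was under the filter level on both transplanted injured and both bone marrow arrays, as were Ms4a2, Mcpt4 and Gata2 in transplanted injured muscle, Mcpt4 in bone marrow and Ms4a2 in injured muscle. Within resting muscle and bone marrow the Kit levels were close while the mast cell sum differed several-fold, and in injured muscle the sum exceeded that of bone marrow while Kit was lower. Against bone marrow, 5 of the 8 markers were called higher in injured muscle and 2 lower, beside 15.5% of all tested probe sets in each direction. Hdc, the histamine-forming enzyme, averaged 146 in injured muscle and 564 in bone marrow, and Gata2 57.4 and 457. The part of mast cells in the Kit values was not tested.

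Flt3, the receptor of multipotent and lymphoid progenitors, had an intensity of 64.4 and 33.7 in transplanted injured muscle, 123 and 144 in injured muscle, 132 and 202 in resting muscle, and 854 and 905 in bone marrow. Bone marrow stood above every muscle array. Resting muscle was lower than bone marrow by -2.40 ± 0.40 (adjusted p = 0.0108), injured muscle by -2.69 ± 0.40 (adjusted p = 0.0022) and transplanted injured muscle by -4.12 ± 0.40 (adjusted p = 0.00035). Injured and resting muscle overlapped, and their difference (-0.29, 95% interval -1.21 to 0.63, adjusted p = 0.61) did not pass. Transplanted injured muscle was lower than resting muscle (-1.72 ± 0.40, adjusted p = 0.0143) and did not differ from injured muscle past the threshold (-1.43 ± 0.40, adjusted p = 0.252).

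Leaving out bone marrow replicate 1 or replicate 2 ended the Flt3 call of resting muscle against bone marrow (adjusted p = 0.0652 and 0.0714), at nearly unmoved folds of -2.44 and -2.36. Without transplanted injured replicate 2 the fall against resting muscle was -1.29 (adjusted p = 0.108). The lymphoid progenitor and B cell markers, 10 of 11 on the array, summed to 169 to 204 in transplanted injured muscle, 211 to 244 in injured muscle, 3125 to 4310 in resting muscle and 13095 to 15920 in bone marrow. Dntt, the terminal transferase of early lymphoid cells, had 2.17 and 2.99 in transplanted injured, 13.8 and 33.4 in injured, 242 and 446 in resting muscle, and 4032 and 4104 in bone marrow. Dendritic cell markers, 6 of 9 on the array, summed to 1478 to 1836, 2477 to 2480, 1943 to 3098 and 8746 to 9026 in the same 4 groups. Both sums were highest in bone marrow, as was Flt3. The dendritic sum there came mostly from Irf8 (mean 6408) and Ccr9 (1613), and the other 4 markers had their highest means elsewhere, Itgax and Cd209a in injured and Zbtb46 and Xcr1 in resting muscle. The part of these cells in the Flt3 values was not tested.

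Cd34, the sialomucin of progenitors and endothelium, had an intensity of 42.3 and 45.6 in transplanted injured muscle, 100 and 128 in injured muscle, 420 and 345 in resting muscle, and 841 and 533 in bone marrow. The 4 groups followed each other without overlap in the order bone marrow, resting muscle, injured muscle, transplanted injured muscle. Injured muscle fell below resting muscle by -1.71 ± 0.35 (adjusted p = 0.0118) and transplanted injured muscle by -3.00 ± 0.35 (adjusted p = 0.00115). Against bone marrow the fall was -2.52 ± 0.35 in injured muscle (adjusted p = 0.00179) and -3.81 ± 0.35 in transplanted injured muscle (adjusted p = 0.000293). Resting muscle against bone marrow (-0.81, 95% interval -1.62 to 0.01, adjusted p = 0.261) and transplanted injured against injured muscle (-1.29, 95% interval -2.11 to -0.48, adjusted p = 0.24) did not pass.

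Without injured muscle replicate 1 the Cd34 fall in injured against resting muscle was -1.54 (adjusted p = 0.0949), and without injured muscle replicate 2 it was -1.88 (adjusted p = 0.0573). The endothelial markers, all 12 on the array, summed to 922 to 969 in transplanted injured muscle, 1202 to 1220 in injured muscle, 11844 to 12569 in resting muscle and 1065 to 1343 in bone marrow. Cdh5, the cadherin of endothelial junctions, averaged 50.3 ± 5.88, 46.9 ± 18.6, 268 ± 29.4 and 125 ± 25.0 in the same 4 groups (SD, n = 2 each). Kdr, a VEGF receptor, averaged 166 ± 6.99, 71.1 ± 1.27, 1503 ± 718 and 357 ± 44.8. The endothelial sum was thus highest in resting muscle, where Cd34 was second to bone marrow. It came there mostly from Fabp4 (mean 5311), Aqp1 (2434) and Kdr. Pecam1 was not highest there, with means of 40.2, 64.6, 46.9 and 64.9 in the same 4 groups. Egfl7 overlapped between resting muscle (207 and 499) and bone marrow (235 and 381). Fibroblast and mesenchymal markers, 10 of 10 on the array, summed to 4493 to 4804, 23348 to 23553, 9533 to 33451 and 242 to 552. Markers of muscle fibres and satellite cells, 10 of 10, summed to 241 to 284, 976 to 1051, 2806 to 4776 and 157 to 254. The part of these cells in the Cd34 values was not tested.

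Procr, the endothelial protein C receptor, had an intensity of 81.8 and 63.5 in transplanted injured muscle, 120 and 145 in injured muscle, 319 and 409 in resting muscle, and 118 and 133 in bone marrow. Both resting muscle arrays stood above the other 6. Resting muscle was higher than bone marrow by 1.50 ± 0.33 (adjusted p = 0.0378), injured muscle was lower than resting muscle by -1.43 ± 0.33 (adjusted p = 0.0183) and transplanted injured muscle by -2.26 ± 0.33 (adjusted p = 0.00253). Injured muscle and bone marrow overlapped (0.07, 95% interval -0.70 to 0.84, adjusted p = 0.894). Transplanted injured muscle was lowest, at -0.77 ± 0.33 against bone marrow (adjusted p = 0.114) and -0.84 ± 0.33 against injured muscle (adjusted p = 0.501), neither of which passed. The endothelial marker sum given with Cd34 was likewise highest in resting muscle, and its part in the Procr values was not tested.

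Procr in resting muscle against bone marrow lost its call under 11 of 19 alternatives. Among them were leaving out bone marrow replicate 1 (1.42, adjusted p = 0.154) or replicate 2 (1.58, adjusted p = 0.115), injured replicate 1 or 2 (adjusted p = 0.0936 and 0.0942) and transplanted injured replicate 1 or 2 (adjusted p = 0.0852 and 0.0849). The fall of Procr in injured against resting muscle was not called without injured replicate 1 (-1.29, adjusted p = 0.127) or replicate 2 (-1.56, adjusted p = 0.0784).

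Slamf1, the CD150 receptor, had an intensity of 28.4 and 20.6 in transplanted injured muscle, 27.9 and 49.8 in injured muscle, 125 and 171 in resting muscle, and 177 and 110 in bone marrow (probe set 1425570_at). Resting muscle and bone marrow overlapped and were both above the 4 injured arrays. Injured muscle was lower than resting muscle by -1.86 ± 0.44 (adjusted p = 0.0194) and lower than bone marrow by -1.79 ± 0.44 (adjusted p = 0.0178). Transplanted injured muscle, under 38.4 on both arrays, was at least 3.54-fold lower than resting muscle (adjusted p = 0.00574) and at least 3.39-fold lower than bone marrow (adjusted p = 0.00573). Neither resting muscle against bone marrow (0.06, 95% interval -0.95 to 1.08, adjusted p = 0.962) nor transplanted injured against injured muscle (adjusted p = 0.923) passed, and the second has no fold because both transplanted injured arrays and 1 injured array were under 38.4.

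The calls of Slamf1 in injured muscle ended without injured replicate 1, both against resting muscle (-1.48, adjusted p = 0.131) and against bone marrow (-1.42, adjusted p = 0.123), and the second also without bone marrow replicate 1 (-1.46, adjusted p = 0.103). Its other probe sets, 1425569_a_at and 1425571_at, did not pass the filter and ran between 3.39 and 51.1, with 1 array above 38.4. With all 3 probe sets averaged, Slamf1 was not called in injured muscle against resting muscle (-0.64, adjusted p = 0.275) or bone marrow (-0.68, adjusted p = 0.24). Markers of T and natural killer cells, 9 of 11 on the array, summed to 2228 to 2285 in transplanted injured muscle, 683 to 739 in injured muscle, 2633 to 4135 in resting muscle and 6050 to 7391 in bone marrow. Between the injured groups that sum was carried by Gzma, a granzyme, which averaged 1660 in transplanted injured and 79.5 in injured muscle. The T cell genes Cd3e (26.2 and 36.6), Cd3g (17.9 and 42.0) and Cd4 (7.93 and 127) had lower means in transplanted injured muscle. So had Cd8b1 (35.2 and 47.3) and Thy1 (141 and 240). Cd3d (83.2 and 49.0), Nkg7 (236 and 58.7) and Ncr1 (49.2 and 30.4) had higher means there, so the list did not move as one. The part of these cells in the Slamf1 values was not tested.

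Csf1r, the receptor of Csf1, had an intensity of 11611 and 9009 in transplanted injured muscle, 14785 and 15622 in injured muscle, 7158 and 9006 in resting muscle, and 1885 and 2232 in bone marrow (probe set 1419872_at). Bone marrow was lowest and injured muscle highest, with no overlap between either and any other group. Against bone marrow, transplanted injured muscle was higher by 2.32 ± 0.20 (adjusted p = 0.000206), injured muscle by 2.89 ± 0.20 (adjusted p = 9.16e-05) and resting muscle by 1.97 ± 0.20 (adjusted p = 0.00108). Injured muscle was above resting muscle by 0.92 ± 0.20 (adjusted p = 0.0134). Transplanted injured muscle did not pass against resting muscle (0.35, 95% interval -0.11 to 0.80, adjusted p = 0.203) or against injured muscle (-0.57, 95% interval -1.03 to -0.12, adjusted p = 0.387).

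The rise of Csf1r in injured against resting muscle was 0.23 (adjusted p = 0.408) with quantile normalization, and it was not called without injured replicate 1 (0.96, adjusted p = 0.0757) or replicate 2 (0.88, adjusted p = 0.0874). Its 2 other probe sets were also called higher in both injured groups than in bone marrow, and differed from each other in resting muscle. Probe set 1419873_s_at had 4323 and 3475 in transplanted injured, 6544 and 6467 in injured and 5190 and 6822 in resting muscle, and 574 and 639 in bone marrow. There, injured and resting muscle overlapped (0.13 ± 0.22, adjusted p = 0.687), while each muscle group was called higher than bone marrow (2.67, 3.42 and 3.29). Probe set 1423593_a_at had 3101 and 2913 in transplanted injured and 5175 and 4982 in injured muscle, but 224 and 1974 on the 2 resting muscle arrays and 168 and 205 in bone marrow. With it, injured muscle was called higher than resting muscle (2.92 ± 0.81, adjusted p = 0.0332). Resting muscle against bone marrow did not pass (1.82 ± 0.81, adjusted p = 0.269).

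The macrophage markers, 10 of 12 on the array, summed to 79359 to 79374 in transplanted injured muscle, 80130 to 87821 in injured muscle, 20192 to 35846 in resting muscle and 6110 to 8012 in bone marrow. Cd68, a lysosomal protein of macrophages, averaged 12191 ± 1612 in transplanted injured, 8998 ± 239 in injured and 1254 ± 1089 in resting muscle, and 1023 ± 589 in bone marrow (SD, n = 2 each). Adgre1, which encodes the F4/80 antigen, averaged 7093 ± 753, 6058 ± 246, 1961 ± 78.0 and 328 ± 183 in the same groups. No marker of the list was under the filter level on both arrays of a group. Cd163 (165, 524, 1413 and 38.1) and Mrc1 (3640, 4843, 5282 and 154) had their highest means in resting muscle. In each injured group against resting muscle, 7 of the 10 markers were called higher and 1 lower. The background was 26% called in injured and 32.4% in transplanted injured muscle. The sum of the list rose in the same order of tissues as Csf1r, except that both injured groups were nearly level. Its part in the Csf1r and Csf2ra values was not tested.

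Csf2ra, the GM-CSF receptor alpha chain, had an intensity of 1625 and 1887 in transplanted injured muscle, 1658 and 1578 in injured muscle, 71.5 and 527 in resting muscle, and 207 and 135 in bone marrow (probe set 1420703_at). The injured groups overlapped with each other and stood above all 4 other arrays, while resting muscle spanned the bone marrow values. Transplanted injured muscle was higher than resting muscle by 3.13 ± 0.76 (adjusted p = 0.0173) and than bone marrow by 3.36 ± 0.76 (adjusted p = 0.0125). For injured muscle the values were 3.02 ± 0.76 (adjusted p = 0.0243) against resting muscle and 3.24 ± 0.76 (adjusted p = 0.0149) against bone marrow. Transplanted injured and injured muscle gave 0.11 (95% interval -1.64 to 1.87, adjusted p = 0.999), an interval wide enough to hold a several-fold difference either way. Resting muscle against bone marrow did not pass (0.23 ± 0.76, adjusted p = 0.913).

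The other Csf2ra probe set, 1420704_at, ran the opposite way. It had 66.3 and 121 in transplanted injured muscle, 101 and 123 in injured muscle, 308 and 366 in resting muscle, and 171 and 237 in bone marrow, and was called lower than resting muscle in transplanted injured (-1.86 ± 0.39, adjusted p = 0.00993) and injured muscle (-1.56 ± 0.39, adjusted p = 0.0234). With both averaged, Csf2ra was not called in any of the 4 comparisons of an injured group (0.64 and 0.73 against resting muscle, 1.11 and 1.20 against bone marrow, transplanted injured first). The low leading value of 71.5 was on the resting muscle array with the Gapdh ratio of 46.9, and the direction of the gene thus depends on the probe set. Where the probes lie along the transcript was not analysed here.

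Leaving out either array of an injured group ended the Csf2ra calls of that group. Against resting muscle, transplanted injured muscle had an adjusted p of 0.0783 and 0.0929 without its replicate 1 and 2, and injured muscle 0.119 and 0.104. Against bone marrow these were 0.0641 and 0.0741 for transplanted injured and 0.0832 and 0.0769 for injured muscle. Leaving out bone marrow replicate 2 ended both calls against bone marrow (adjusted p = 0.0739 for transplanted injured and 0.0853 for injured muscle), and leaving out replicate 1 ended that of injured muscle (adjusted p = 0.0552). Folds stayed between 2.94 and 3.54 in these settings. In resting muscle against bone marrow, Csf2ra was called higher without resting muscle replicate 1 (1.63, adjusted p = 0.016) and lower without replicate 2 (-1.18, adjusted p = 0.0337), so 1 array decides the direction there.

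**Figure D3:**
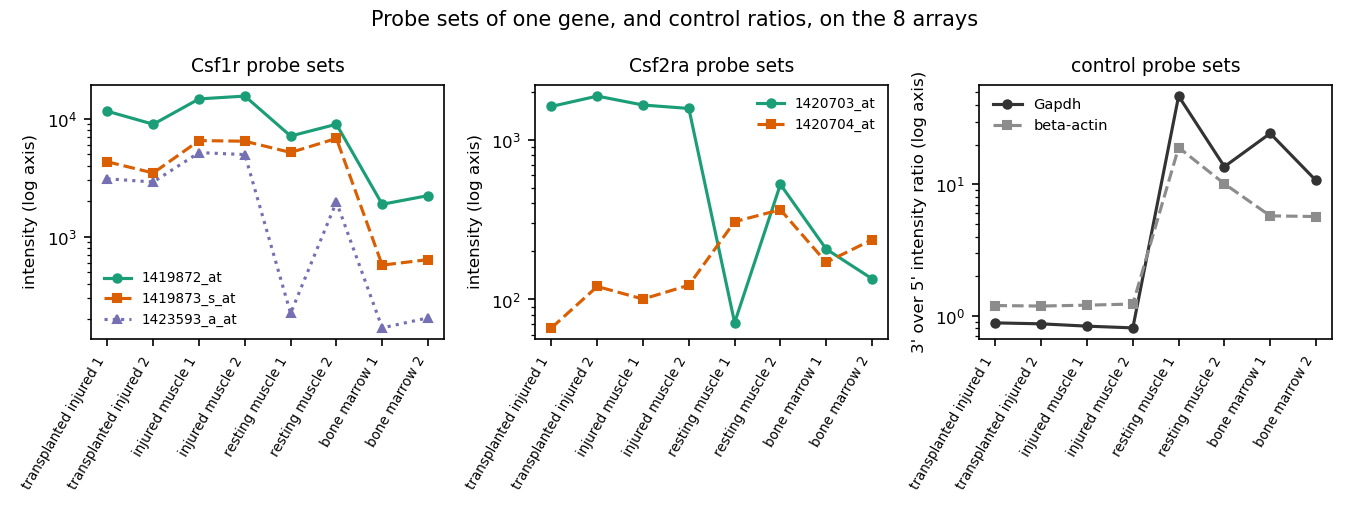
Intensity (log axis) of the 3 Csf1r probe sets (left) and the 2 Csf2ra probe sets (middle) on the 8 arrays, with the 3' over 5' ratio of the Gapdh and beta-actin control probe sets (right, log axis). The leading Csf2ra probe set, 1420703_at, is highest on the 4 injured arrays and the other one lowest there, and resting muscle replicate 1, with the Gapdh ratio of 46.9, has the low values of 71.5 for Csf2ra and 224 for Csf1r probe set 1423593_a_at.

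Csf3r, the G-CSF receptor, had an intensity of 781 and 734 in transplanted injured muscle, 775 and 762 in injured muscle, 106 and 428 in resting muscle, and 554 and 505 in bone marrow. Resting muscle was lowest, with its 2 arrays about as far apart as its mean was from bone marrow. Injured muscle was higher than resting muscle by 1.83 ± 0.56 (adjusted p = 0.0454) and transplanted injured muscle by 1.81 ± 0.56 (adjusted p = 0.04). No comparison with bone marrow passed: transplanted injured muscle gave 0.51 ± 0.56, injured muscle 0.54 ± 0.56 and resting muscle -1.29 ± 0.56 (adjusted p = 0.512, 0.495 and 0.255). The injured groups differed by -0.02 (95% interval -1.31 to 1.26, adjusted p = 0.999).

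Of 19 alternatives, 10 ended the Csf3r call in injured and 8 that in transplanted injured against resting muscle. Leaving out any array of the other 3 groups ended both. For injured muscle, the adjusted p was 0.179 and 0.164 without its own replicates 1 and 2, 0.0722 and 0.0711 without those of bone marrow, and 0.0808 without either transplanted injured array. For transplanted injured muscle it was 0.161 and 0.143 without its own replicates, 0.0652 and 0.0643 without those of bone marrow, and 0.0725 and 0.0727 without those of injured muscle. Without resting muscle replicate 2, Csf3r was called lower in resting muscle than in bone marrow (-2.28, adjusted p = 0.000801).

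Neutrophil markers moved differently from Csf3r. They summed, over 9 of 10 on the array, to 655 to 757 in transplanted injured muscle, 394 to 405 in injured muscle, 17132 to 30490 in resting muscle and 41400 to 51402 in bone marrow. Ngp, a granule protein of neutrophils, had 36.3 and 21.2 in transplanted injured and 33.3 and 28.2 in injured muscle, against 7653 and 5115 in resting muscle and 8722 and 9434 in bone marrow. The granule genes Ngp, Camp and Ltf were under the filter level on all 4 injured arrays, where Csf3r was at its highest. The part of neutrophils in the Csf3r values was not tested.

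**Figure D4:**
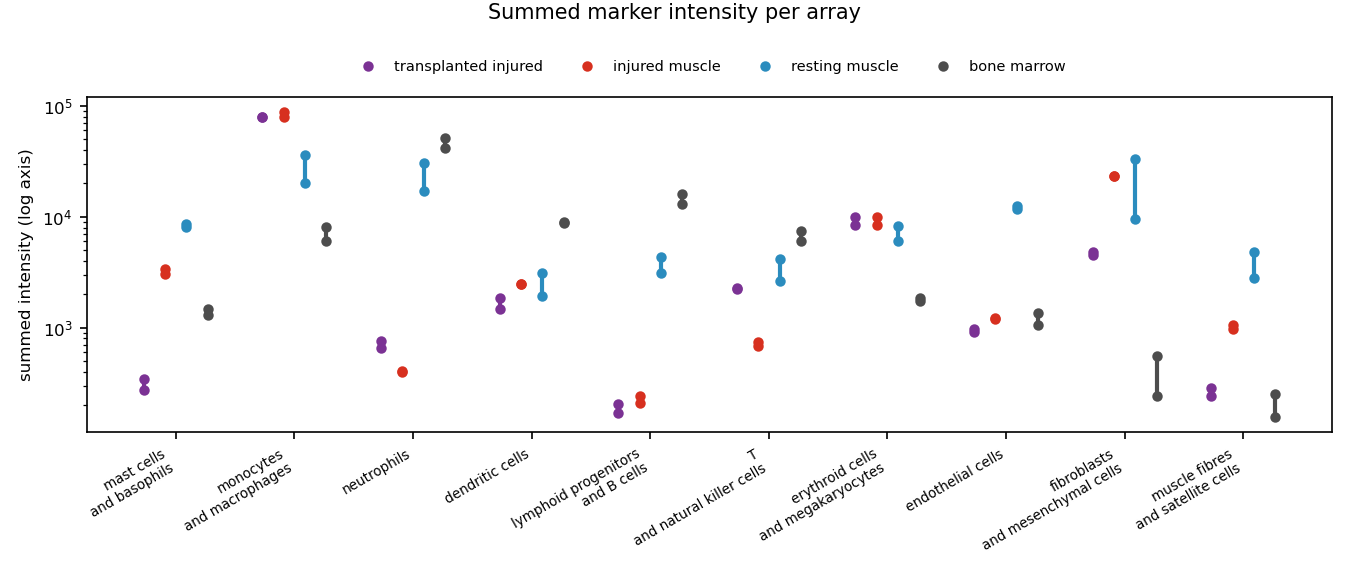
Summed intensity (log axis) of marker lists on the 2 arrays of each group, drawn as 2 points joined by a line, with transplanted injured muscle, injured muscle, resting muscle and bone marrow from left to right in each list. The macrophage sum is highest in the injured groups, the neutrophil and lymphoid sums lowest there, and the endothelial and mast cell sums are highest in resting muscle.

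Among the ligands, 6 of 9 were named on the array and 4 were tested. Kitl, which encodes stem cell factor, had an intensity of 54.6 and 78.8 in transplanted injured muscle, 118 and 81.2 in injured muscle, 2076 and 389 in resting muscle, and 19.9 and 18.5 in bone marrow. Resting muscle stood above all other arrays, at least 21.3-fold higher than bone marrow (adjusted p = 0.00371). Injured muscle was lower than resting muscle by -3.15 ± 0.70 (adjusted p = 0.0151) and transplanted injured muscle by -3.70 ± 0.70 (adjusted p = 0.00642). Csf2, which encodes GM-CSF, had 6.40 and 2.58 in transplanted injured, 50.5 and 60.7 in injured and 570 and 394 in resting muscle, and 10.3 and 4.19 in bone marrow. It fell in injured against resting muscle by -3.01 ± 0.49 (adjusted p = 0.00515) and was at least 11.3-fold lower in transplanted injured muscle (adjusted p = 0.000438).

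Kitl and Kit were thus both lower in the injured groups than in resting muscle, whereas Csf2 was lower where the leading Csf2ra probe set was higher. Csf1, the ligand of Csf1r, had 211 and 163 in transplanted injured, 267 and 323 in injured and 116 and 189 in resting muscle, and 101 and 104 in bone marrow. It was higher in injured muscle than in bone marrow (1.49 ± 0.36, adjusted p = 0.0167), and against resting muscle it did not pass (0.97 ± 0.36, adjusted p = 0.081). Csf3, the G-CSF gene, passed in no comparison and had 6.33 and 7.63 in transplanted injured, 42.4 and 56.0 in injured, 14.3 and 146 in resting muscle, and 6.05 and 11.7 in bone marrow. Without injured replicate 1 or 2 the fall of Kitl in injured muscle was not called (adjusted p = 0.0677 and 0.0916), nor that in transplanted injured muscle without its replicate 1 (adjusted p = 0.0505), and the Csf1 call was lost in some settings (adjusted p up to 0.113). In all, 2 of the 4 tested ligands were higher in resting muscle than in bone marrow, 2 lower in injured and 2 lower in transplanted injured against resting muscle, where 4.83%, 13.9% and 18.5% of all tested probe sets were called that way.

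Partner and other cytokine receptor chains, 13 tested of 16, split. Csf2rb, the common beta chain that signals for Csf2ra, had 278 and 301 in transplanted injured, 409 and 325 in injured and 17.3 and 83.8 in resting muscle, and 156 and 125 in bone marrow. It rose in injured (3.09 ± 0.60, adjusted p = 0.00941) and in transplanted injured muscle (2.76 ± 0.60, adjusted p = 0.0113) against resting muscle. Csf2rb2, the mouse beta chain of the interleukin 3 receptor, was lower than in bone marrow in transplanted injured (-1.63 ± 0.32, adjusted p = 0.00743) and injured muscle (-1.28 ± 0.32, adjusted p = 0.0197). F2r, the thrombin receptor, fell by -4.32 ± 0.34 in transplanted injured (adjusted p = 0.000367) and by -3.36 ± 0.34 in injured against resting muscle (adjusted p = 0.00116).

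Il6st, the shared gp130 chain, and Osmr, the oncostatin M receptor, were higher in resting muscle than in bone marrow (Il6st by 2.53 ± 0.28, Osmr at least 10.1-fold). Both fell in injured against resting muscle, Il6st by -1.24 ± 0.28 (adjusted p = 0.0168) and Osmr by -1.80 ± 0.56 (adjusted p = 0.0486). With the probe sets of Il6st averaged, its sign turned (0.88, adjusted p = 0.0738). The list held 1 higher and 3 lower genes in injured, and 1 higher and 5 lower in transplanted injured, against resting muscle, beside 26% and 32.4% of all tested probe sets called in either direction. The median log2 fold change of the list was -0.75 in injured and -0.80 in transplanted injured muscle (-0.72 and 0.00 with every array under 38.4 raised to that level). Without injured replicate 1 or 2, the calls in injured against resting muscle ended for Csf2rb (adjusted p = 0.0708 and 0.0531) and Il6st (0.0881 and 0.114), and without either transplanted injured array that of Csf2rb in transplanted injured muscle ended (adjusted p = 0.0616 and 0.0677). The Osmr call ended in several such settings (adjusted p up to 0.227), as did those of Csf2rb2 against bone marrow (up to 0.135 in injured muscle and 0.0654 in transplanted injured muscle). F2r kept its calls.

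Other surface markers of progenitors, 13 tested of 16, were lower in 5 genes and higher in 2 in injured against resting muscle, and lower in 6 and higher in 3 in transplanted injured muscle. The backgrounds were 13.9% lower and 12.1% higher in injured, and 18.5% lower and 13.9% higher in transplanted injured muscle. Prom1, a progenitor membrane protein, had 12.8 and 2.15 in transplanted injured, 27.9 and 10.8 in injured and 563 and 113 in resting muscle, and 284 and 383 in bone marrow. In both injured groups it was at least 6.08-fold lower than in resting muscle (adjusted p = 0.0047 in transplanted injured and 0.0163 in injured muscle). Thy1, an antigen of T cells and stem cells, fell by -2.80 ± 0.41 in transplanted injured (adjusted p = 0.00241) and -2.01 ± 0.41 in injured against resting muscle (adjusted p = 0.011).

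Tek, the angiopoietin receptor of endothelium and stem cells, had 26.0 and 33.6 in transplanted injured, 37.8 and 58.3 in injured and 953 and 198 in resting muscle, and 48.3 and 28.6 in bone marrow, and Tek also counts as an endothelial marker. Selp, the platelet and endothelial selectin, and Esam, an endothelial adhesion protein, were with Tek the 3 genes of the list called higher in resting muscle than in bone marrow. That is 3 of 13 tested genes, beside 4.83% of all tested probe sets. Itga6, an integrin chain, moved the other way, with 2053 and 1705 in transplanted injured, 1032 and 960 in injured and 398 and 87.4 in resting muscle, and 62.1 and 36.3 in bone marrow. It rose against resting muscle by 3.29 ± 0.63 in transplanted injured (adjusted p = 0.00681) and 2.38 ± 0.63 in injured muscle (adjusted p = 0.0281).

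Cd48, a receptor absent from mouse blood stem cells and present on most other leukocytes, had 3150 and 3339 in transplanted injured, 2201 and 2322 in injured and 1199 and 475 in resting muscle, and 827 and 470 in bone marrow. It rose against resting muscle in transplanted injured (2.10 ± 0.44, adjusted p = 0.0103) and injured muscle (1.58 ± 0.44, adjusted p = 0.0347). Cd93 was higher than in bone marrow in both injured groups (2.25 ± 0.26 and 1.72 ± 0.26, transplanted injured first), with an adjusted p of 0.000668 and 0.00228. Leaving out injured replicate 1 or 2 ended the calls in injured against resting muscle of Prom1 (adjusted p = 0.0537 and 0.102), Thy1 (0.0769 and 0.065), Itga6 (0.135 and 0.115) and Cd48 (0.142 and 0.149). In transplanted injured muscle, calls were lost for Itga6 (adjusted p up to 0.0519) and Cd48 (up to 0.0651), and in resting muscle against bone marrow for Tek (up to 0.154) and Esam (up to 0.218).

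Signalling intermediates, 22 tested of 26, were mostly not called: 5 rose and 1 fell in injured, and 3 rose and 1 fell in transplanted injured, against resting muscle. These 6 of 22 in injured muscle are near the 26% of all tested probe sets, and the 4 of 22 in transplanted injured muscle are below 32.4%. Stat3, the main STAT of G-CSF signalling, had 2167 and 2043 in transplanted injured, 2345 and 2413 in injured and 154 and 466 in resting muscle, and 160 and 445 in bone marrow. It rose by 2.95 ± 0.59 in transplanted injured (adjusted p = 0.00796) and 3.13 ± 0.59 in injured against resting muscle (adjusted p = 0.00835). Ptpn6, the phosphatase SHP-1 that restrains Kit and cytokine receptors, rose by 2.20 ± 0.28 (adjusted p = 0.00147) and 2.12 ± 0.28 (adjusted p = 0.00252) in the same comparisons, and was lower in resting muscle than in bone marrow (-1.80 ± 0.28, adjusted p = 0.00757). Jak2, the kinase of the GM-CSF receptor, fell in injured (-1.32 ± 0.28, adjusted p = 0.0132) and transplanted injured muscle (-0.93 ± 0.28, adjusted p = 0.0374), while Jak1 rose in injured muscle (1.09 ± 0.29, adjusted p = 0.0289). With their probe sets averaged, neither Stat3 nor Ptpn6 was called against resting muscle. Without injured replicate 1 or 2 the calls in injured muscle ended for Stat3 (adjusted p = 0.0578 and 0.0575), Jak1 (0.157 and 0.12) and Jak2 (0.0981 and 0.0756), and leaving out 1 array also ended those of Stat3 (up to 0.0541) and Jak2 (up to 0.198) in transplanted injured muscle and of Ptpn6 in resting muscle (up to 0.0577).

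Target and feedback genes, 17 tested of 18, fell in 5 and rose in none in injured, and fell in 7 and rose in 1 in transplanted injured, against resting muscle. Over all tested probe sets 13.9% fell and 12.1% rose in injured, and 18.5% fell and 13.9% rose in transplanted injured muscle. Myc, a growth regulator induced by these receptors, had 120 and 168 in transplanted injured, 262 and 259 in injured and 595 and 719 in resting muscle, and 418 and 612 in bone marrow. It fell by -2.17 ± 0.34 in transplanted injured (adjusted p = 0.00307) and -1.31 ± 0.34 in injured muscle (adjusted p = 0.0257). Cish, a STAT5 target that dampens cytokine signalling, fell by -2.09 ± 0.40 and -1.74 ± 0.40 (adjusted p = 0.00708 and 0.0177), transplanted injured first. Bcl2, an inhibitor of cell death, fell in injured muscle (-2.04 ± 0.38, adjusted p = 0.00825) and narrowly missed in transplanted injured muscle (-1.15 ± 0.38, adjusted p = 0.0513). Against bone marrow, resting muscle had Spred1 and Socs3, both feedback inhibitors, higher, and the cyclin Ccnd1 and the kinase Pim2 lower. The calls in injured against resting muscle ended without injured replicate 1 or 2 for Myc (adjusted p = 0.132 and 0.125), Cish (0.115 and 0.0814) and Bcl2 (0.0542 and 0.0597). Leaving out 1 array also ended the call of Cish in transplanted injured muscle (up to 0.0574) and those of Ccnd1 (up to 0.139) and Pim2 (up to 0.172) in resting muscle.

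Regulators of the 8 genes, 16 tested of 18, fell in 5 and rose in 2 in each injured group against resting muscle, beside 26% of all tested probe sets called in injured and 32.4% in transplanted injured muscle. Gata2, a transcription factor of stem cells and mast cells, had 31.9 and 25.8 in transplanted injured, 48.5 and 66.4 in injured and 664 and 618 in resting muscle, and 444 and 469 in bone marrow. It was at least 15.2-fold lower in transplanted injured (adjusted p = 0.000355) and lower by -3.41 ± 0.33 in injured against resting muscle (adjusted p = 0.00103). Gfi1, a repressor of stem cells and granulocytes, was under the filter level on all 4 injured arrays and at least 2.79-fold lower there than in resting muscle. Myb, a factor of immature blood cells, fell in injured muscle (at least 9.40-fold lower than resting muscle, adjusted p = 0.00394) and in transplanted injured muscle (-2.72 ± 0.55, adjusted p = 0.00857).

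Runx1, a factor of definitive blood formation, went the other way, with 322 and 301 in transplanted injured, 581 and 500 in injured and 75.1 and 5.90 in resting muscle, and 29.4 and 166 in bone marrow. Its rise was 3.49 ± 1.00 in transplanted injured (adjusted p = 0.0304) and 4.28 ± 1.00 in injured against resting muscle (adjusted p = 0.018). Without either injured array the second was not called (adjusted p = 0.0989 and 0.0837). Irf8, a factor of monocytes and dendritic cells, and Meis1, a factor of stem cells, were the regulators lower in resting muscle than in bone marrow. Irf8 had 1079 and 2232 in resting muscle against 6280 and 6537 in bone marrow (-2.04 ± 0.35, adjusted p = 0.0117), and Meis1 was at least 9.47-fold lower (adjusted p = 0.0271). Leaving out 1 array ended both calls (adjusted p up to 0.0815 for Irf8 and 0.185 for Meis1), as well as those of Runx1 (up to 0.128) and Myb (up to 0.0578) in transplanted injured muscle. Gata2 kept its calls against resting muscle.

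**Figure D5:**
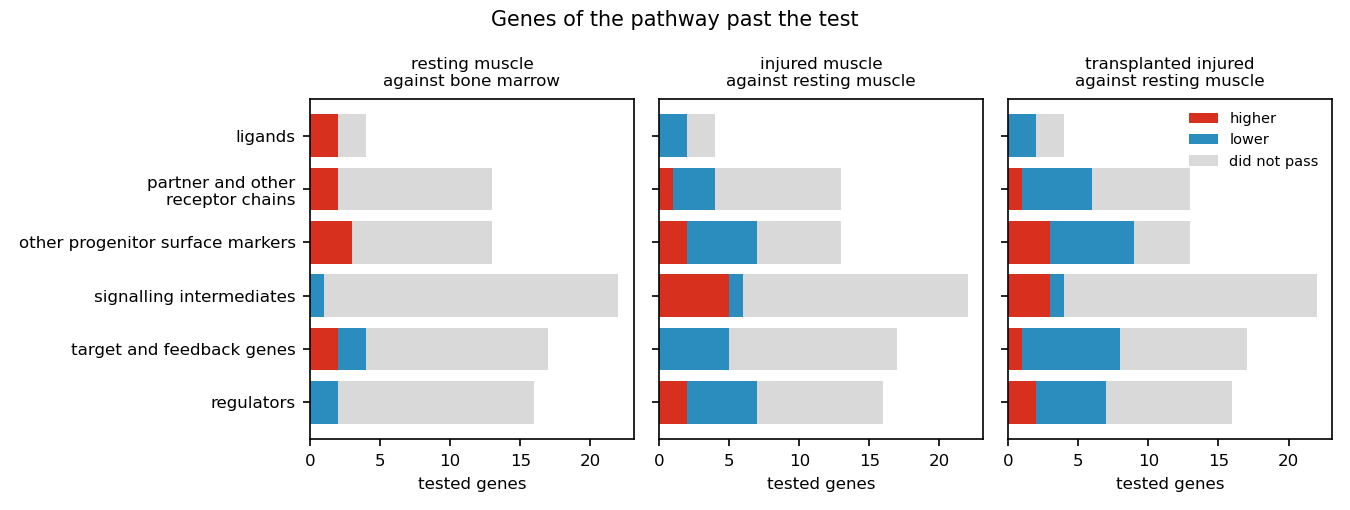
Number of tested genes of each pathway list that were called higher or lower, or did not pass, in resting muscle against bone marrow (left) and in injured (middle) and transplanted injured muscle (right) against resting muscle. In target and feedback genes 5 of 17 were lower and none higher in injured muscle, and in signalling intermediates 5 of 22 were higher and 1 lower. Over all tested probe sets 13.9% were lower and 12.1% higher in that comparison.

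No gene of the 6 pathway lists was called by limma in transplanted injured against injured muscle. Of 85 tested genes 12 had an unadjusted p under 0.05, against 8.75% of all tested probe sets. The nearest was Csf2, with 6.40 and 2.58 against 50.5 and 60.7 and an adjusted p of 0.0681, at least 1.40-fold lower against the level of 38.4. Of the mast cell genes named with Kit, Cpa3 (-3.82 ± 0.33, adjusted p = 0.0123), Cma1 (-4.07 ± 0.30, adjusted p = 0.0123) and the protease Mcpt4 (at least 11.3-fold, adjusted p = 0.0291) were called lower in that comparison. Leaving out any of the 4 arrays compared ended all 3 calls (adjusted p up to 0.352 for Cpa3 and Cma1 and 0.435 for Mcpt4).

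Likeness was measured as Pearson's r of log2 intensities over the 8 arrays, across 7403 leading probe sets, and is a description of 8 points in 4 groups. Kit was most like Lztfl1 (0.980), Serpinb1a (0.980) and Map1lc3b (0.978). For Flt3 the closest were Klk1 (0.987), Ramp1 (0.986) and Ppm1m (0.977), and for Csf1r they were Pdlim4 (0.985), Cd14 (0.984) and Timp2 (0.984). Cd34 was closest to Cd55 (0.993), Slc25a15 (0.992) and Zbtb14 (0.988), Procr to Marcksl1 (0.984), Ppp4r1 (0.977) and Pdlim1 (0.977), and Slamf1 to Eif2ak3 (0.987), Cers5 (0.984) and Zranb1 (0.984). The closest to Csf2ra were Myd88 (0.989), Uqcr10 (0.989) and Card19 (0.988), and to Csf3r they were Ppil2 (0.996), Prpf8 (0.995) and Tspo (0.994). Among the 8 genes themselves, Cd34 with Slamf1 (0.945) and Cd34 with Kit (0.924) were most alike, and Cd34 with Csf2ra (-0.865) least.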

How the data were processed

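The deposited table holds linear intensities, 1 per probe set and array, with each array scaled by the authors to a trimmed mean of about 250.1 (2% left out at each end). Per the submitters' processing notes the software GCOS is named. No version or role of it is stated there. A one-cycle method labelled 1 µg of total RNA, per the labels' protocols.

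Control probe sets (64) were left out of the tests. Of 22626 probe sets, 20380 had 1 gene, 691 several and 1555 none in the platform annotation, and 20351 symbols were updated. After raising values under 1 to 1, limma 3.58.1 (R 4.3.3) fitted log2(value + 4) on all 8 arrays with a mean per group (4 residual and a median of 4.07 prior degrees of freedom), an intensity trend, two-sided tests and Benjamini-Hochberg adjustment over 16289 probe sets. Tested probe sets had at least 2 arrays at or above the 40th percentile, 38.4. The median SE was 0.45 for resting muscle against bone marrow, and precision is limited by how many arrays there are.

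The 6 comparisons share arrays. The 8 genes and all lists were chosen with earlier results of these data known. Named were all probe sets of the 8 genes, up to 4 called genes per list and comparison in order of p (otherwise the 2 with the smallest p), the first markers of each list, and the 3 genes most like each member. Csf3, Cd48 and further mast, dendritic, macrophage, endothelial, T and natural killer cell markers were added after they were seen. So were values of a named gene in a comparison where others ranked higher. The labels do not say whether the replicate numbers pair the samples, and the main fit took no pairing. Deviations from group means correlated at 0.313 between bone marrow and resting muscle, so a shared replicate effect there is possible. In the other 5 pairs of groups they correlated between -0.03 and 0.00. The alternatives changed scaling, pseudocount, filter, trend, array weights, replicate block, probe set choice and the arrays used. The fit was tested on simulated data.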

Additional observations from a re-analysis of the deposited data

How the results depend on the processing

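Of 912 repeats of a gene's comparison under another setting, 816 kept the direction and side of the threshold, 76 lost a call, 7 gained one and 13 changed sign. The sign changes were all of values not called above. For Csf2ra in resting muscle against bone marrow (-1.18 to 1.63 on leaving out 1 array) they were -0.08 without bone marrow replicate 2 and -1.18 without resting muscle replicate 2, and for Slamf1 in that comparison (-0.27 to 0.40 on leaving out 1 array) -0.11 with median centring, -0.0385 with all probe sets averaged, -0.27 without bone marrow replicate 2 and -0.15 without resting muscle replicate 2. The others were Flt3 in injured against resting muscle (0.0139 without resting muscle replicate 2, otherwise down to -0.59), Csf2ra (-0.0924, probe sets averaged) and Csf3r (0.11 with median centring, 0.0233 without transplanted injured replicate 2, otherwise down to -0.0653) in transplanted injured against injured muscle, Csf1r in transplanted injured against resting muscle (-0.19, quantile normalization), and Procr in injured muscle against bone marrow (-0.01 without bone marrow replicate 1, -0.0651 without injured replicate 2, otherwise up to 0.206). With median centring that Csf1r value was called (0.63, adjusted p = 0.0388).

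The number of the 8 genes called is given here with the share of all tested probe sets or genes called. In resting muscle against bone marrow it was 1 instead of 3 with array weights (2.93%) and with only the 4 arrays compared (1.77%). The main fit called 6.08% there. Injured against resting muscle gave 3 instead of 7 with probe sets averaged (19.5%) and with only the 4 arrays (12.7%), beside 26%. Transplanted injured against injured muscle gave 2 instead of 0 (Cd34 and Flt3, lower) with array weights (4.98%) and with only the 4 arrays (6.91%), beside 0.252%. For transplanted injured against resting muscle it was 4 instead of 7 with only the 4 arrays (18.5%, beside 32.4%). With probe sets averaged it was 3 instead of 6 in injured muscle against bone marrow (26%, beside 30.9%). The F test then gave 4 instead of 7 (33%, beside 38.1%). Leaving out 1 array gave 1 to 5 called in resting muscle against bone marrow, 1 to 7 in injured against resting muscle (1 without either injured array), 0 to 0 in transplanted injured against injured muscle, 4 to 7 in transplanted injured against resting muscle, 5 to 6 and 3 to 6 in transplanted injured and injured muscle against bone marrow, and 7 to 8 in the F test. A group then rests on 1 array assumed to vary like the others. Calls over all probe sets dropped too, to 8.12% and 8.92% in injured against resting muscle without injured replicate 1 or 2 (26% with all arrays), and to 14.7% and 15.3% in transplanted injured against resting muscle without its replicate 1 or 2 (32.4%). The cause of the other changes was not tested.

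With the replicate block, 2 of the 8 genes were called in resting muscle against bone marrow (Procr lost), and no other count changed. Median centring moved the median of all probe sets, in transplanted injured against resting muscle to 0.09 where it was -0.19, and the share of calls that were higher to 59.0% where it was 42.9%; for injured against resting muscle this share was 56.6% against 46.6%, for resting muscle against bone marrow 69.4% against 79.4%, and for transplanted injured against injured muscle 22.2% with quantile normalization against 9.76%. All alternatives were also run on the list genes, which was chosen after seeing the data: 197 of 393 calls held under every one, and 4 changed sign with probe sets averaged, Il6st in injured (0.88) and transplanted injured (0.61) and Spred1 in transplanted injured (0.16) against resting muscle, and Spry2 in injured muscle against bone marrow (-0.36). Where the arrays of a group lie under 38.4, the size of a fitted fold depends on the constant added.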
